A study of Mus musculus with 24 samples.

Results

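PLX3397 given alone was compared with vehicle at 5 days post injury (dpi) in the brains of mice with traumatic brain injury (TBI). The comparison used 10 of the 24 libraries of the series, the 5 of the PLX3397 group and the 5 of the vehicle group, chosen by the treatment in the sample labels and by nothing measured. TBI was made by controlled cortical impact, in which a piston strikes the exposed cortex of an anaesthetised mouse. All mice were male and 12 to 16 weeks old according to the labels, which give the strain as C57BL6N, whereas the study's methods name C57BL/6JRj. PLX3397 mice ate chow with 290 mg of PLX3397 per kg of food from 90 min after the impact until 5 dpi. Vehicle mice had the same impact and time point, and vehicle in place of both drugs. Each library came from 1 mouse, and no mice were pooled. The tissue is cortex by the labels, but by the methods it was cryosections with cortex, striatum, dorsal hippocampus and thalamus. Besides these, 5 mice with TBI received Anakinra, an interleukin-1 receptor antagonist, 5 received PLX3397+Anakinra and 4 mice were sham-operated without craniotomy. These were used to fit the spread and, where named, for comparison.

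PLX3397 is an oral inhibitor of CSF1R, the receptor tyrosine kinase that microglia need to survive, and it also acts on the related kinases KIT and FLT3. CSF1R is bound by CSF1 and IL-34. Microglia are the resident macrophages of the brain parenchyma, and related macrophages line the meninges and blood vessels. After TBI microglia multiply, lose part of their surveying profile and take up debris, while monocytes and neutrophils enter from the blood. Because whole tissue was sequenced, fewer cells of a type and less RNA per cell cannot be told apart in any of the values below.

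Expression was deposited as TPM, a measure of transcript abundance that corrects the reads of a gene for its length and brings each library to a sum of 1000000. The study's methods add that its software names this unit CPM, a name also used for values without a correction for length. The values were read here as corrected for length. The table holds no read counts, so the depth of a library is unknown and every error below is the spread between mice. Of 36333 genes, 17267 averaged 0.5 TPM or more across all 24 libraries and entered the test. Between 22544 and 23249 genes were above 0 in each of the 10 libraries. Fold changes are differences of group means on the log2(TPM + 1) scale with the standard error (SE), and understate the change of low genes. Adjusted p-values are from limma over all genes tested, and a gene is said to have fallen or risen where its adjusted p was below 0.05. The gene lists used below were chosen with earlier results of these data known, so their counts describe the members and test nothing. For each mouse, the log2(TPM + 1) values of the genes in a list were averaged into a list score, shown as the difference from the vehicle mean. The vehicle mouse J17B stood apart in these scores, being the lowest vehicle mouse for 15 of 15 genes of activated phagocytes, 14 of 14 lysosomal genes and 11 of 11 complement genes. The PLX3397 mouse J02 was the highest of its group for 14 of 14 lysosomal genes and 10 of 12 homeostatic microglial genes, and the mouse J01 the lowest for 14 of 14 lysosomal genes. J02 also had the lowest striatal score of the group, -0.417 against 0.106 to 0.158 in the other PLX3397 mice. Whether the sections held different shares of the lesion and the striatum was not tested. Every vehicle mouse carries the letter B in its animal number and no other mouse does. If the letter marks a batch, it cannot be told apart from vehicle.

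More genes were lower than higher after PLX3397, and the lower ones had moved further. In all, 1150 genes (6.66% of those tested) were lower and 557 (3.23%) were higher in PLX3397 than in vehicle mice. The median log2 fold change was -0.46 among the genes that fell and 0.20 among those that rose, against 0.0063 over all genes tested. A change above 1.5-fold was reached by 438 of the genes that fell and by 54 of those that rose. For 848 genes (4.91%) all 5 PLX3397 mice were below all 5 vehicle mice, and for 342 (1.98%) all were above. The counts of each list below are to be read beside these shares of all genes. With the study's limits for a differentially expressed gene (DEG), a ratio of group means above 2, a difference above 4 TPM and p below 0.05 before adjustment, 161 genes (0.932%) were lower and 15 (0.0869%) higher. Of the 161 lower DEGs, 154 did not overlap between the groups, but of the 15 higher DEGs only 2 did not. In a fit restricted to the 10 compared libraries, 179 genes passed as higher in place of 557, and 819 as lower. Without 1 vehicle mouse, the genes higher numbered 333 (J18B left out), 362 (J19B) or 814 (J17B), and the higher DEGs numbered 8 without J20B, J02 or J20 and 23 without J01.

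**Figure D1:**
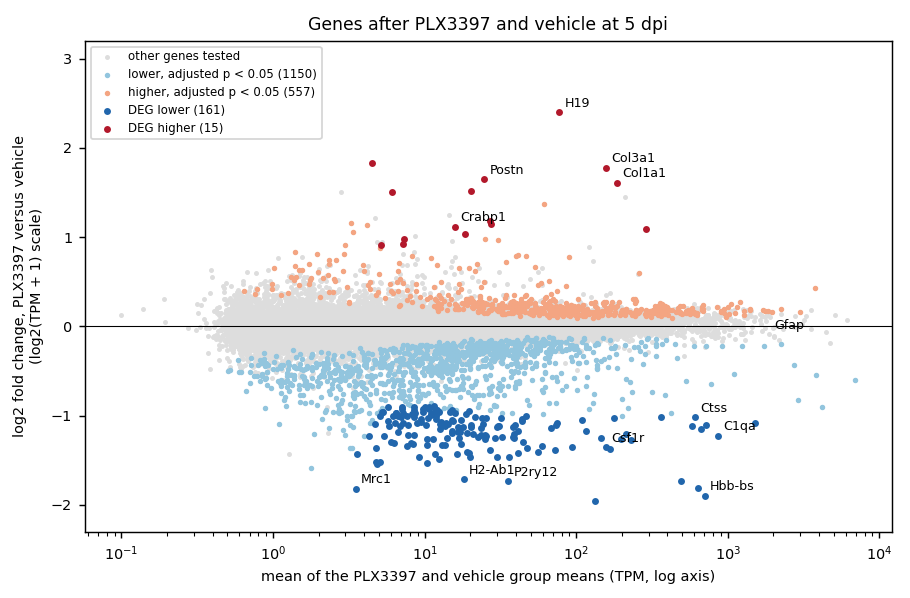
Each point is 1 of 17267 genes, with the mean of the PLX3397 and vehicle group means in TPM on a log axis and the log2 fold change of PLX3397 versus vehicle on the vertical axis. The 161 lower DEGs lie at levels from a few TPM up to those of C1qa and Hbb-bs, whereas the 15 higher DEGs are few and led by H19.

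Of the 3 kinases that PLX3397 inhibits, only the transcript of CSF1R fell. Csf1r stood at 211, 194, 239.9, 241 and 247 TPM in the 5 vehicle mice (J01B, J17B, J18B, J19B and J20B, the order used throughout) and at 75.3, 120.5, 73.8, 90.5 and 85.2 TPM in the 5 PLX3397 mice (J01, J02, J12, J19 and J20). The groups did not overlap, and the highest PLX3397 value was that of J02. The mean fell from 226 ± 22.9 to 89.1 ± 18.9 TPM (mean ± SD, n = 5), with a log2 fold change (± SE) of -1.35 ± 0.0904, adjusted p = 6.95e-10, and remained above the 61.2 ± 0.861 TPM of the 4 sham mice. Kit, the receptor of stem cell factor, had 20.9 ± 0.729 TPM in vehicle and 21.6 ± 2.01 TPM in PLX3397 mice (0.043 ± 0.068, adjusted p = 0.768), with a 95% interval of the log2 fold change from -0.098 to 0.18. Flt3, the receptor of FLT3 ligand, had 4.79 ± 0.181 and 4.65 ± 0.521 TPM (-0.041 ± 0.085, adjusted p = 0.831), with an interval from -0.22 to 0.13. None of the 4 ligand genes passed the test. Csf1 had 57.1 ± 8.91 and 48.6 ± 4.76 TPM (-0.22 ± 0.0902, adjusted p = 0.137), and Il34 had 50.9 ± 4.26 and 53.7 ± 4.47 TPM (0.076 ± 0.052, adjusted p = 0.417). The fold changes of Kitl and Flt3l were 0.029 and 0.098.

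**Figure D2:**
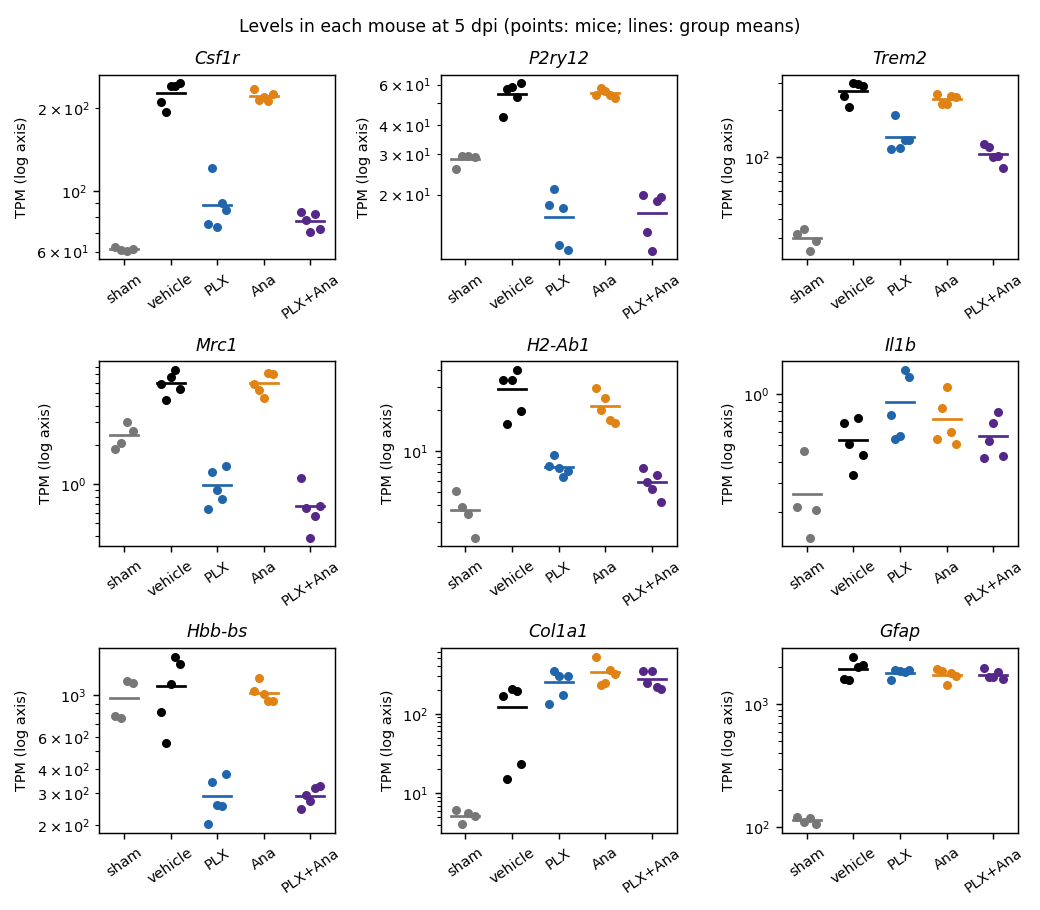
TPM of 9 genes in each mouse on log axes, with a point per mouse and a line at each group mean (sham n = 4, other groups n = 5; PLX is PLX3397, Ana is Anakinra). Csf1r, P2ry12, Trem2, Mrc1, H2-Ab1 and Hbb-bs lie lower in both PLX3397-treated groups than in the other 2 TBI groups on average, whereas Gfap overlaps.

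All 12 genes of homeostatic microglia fell, in a comparison that called 6.66% of all genes lower, and for all 12 the groups did not overlap. Their median log2 fold change was -1.36, and the levels left in PLX3397 mice ranged from 27.1 to 64.0% of vehicle. P2ry12 (chr3:59216271-59262985 in GRCm38, RefSeq), the ADP receptor with which resting microglia sense injury, had 43.3, 57.6, 58.8, 53.2 and 61.1 TPM in vehicle mice and 18.005, 21.2, 12.2, 17.5 and 11.5 TPM in PLX3397 mice. Every treated mouse also lay below the lowest of the 4 sham mice, which averaged 28.5 ± 1.69 TPM, and the log2 fold change against vehicle was -1.74 ± 0.14, adjusted p = 7.81e-09. Tmem119, a membrane protein that marks microglia, had 60.5, 51.2, 64.4, 75.7 and 64.4 TPM in vehicle and 24.1, 32.6, 22.9, 21.96 and 24.4 TPM in PLX3397 mice. J02 lay highest again, and the mean of PLX3397 mice (25.2 ± 4.27 TPM) was close to that of sham mice (24.8 ± 0.887 TPM). Cx3cr1, the fractalkine receptor, fell from 135 ± 16.3 to 52.4 ± 8.77 TPM (-1.36 ± 0.094, adjusted p = 9.40e-10). The smallest fall was that of Sall1, a transcription factor of microglial identity, from 26.7 ± 2.61 to 17.1 ± 0.824 TPM (-0.61 ± 0.079, adjusted p = 5.26e-06).

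The homeostatic genes did not end at the same place relative to sham mice. In vehicle mice all 12 were above sham, in a comparison that called 26.6% of all genes higher and 27.7% lower. In PLX3397 mice P2ry12, Crybb1, Siglech and Slc2a5 were below sham, 5 were above it and 3 did not pass the test, in a comparison that called 22.5% of all genes lower and 22.7% higher. Siglech, a sialic acid binding lectin, had 18.6 ± 1.297 TPM in vehicle, 6.18 ± 1.76 TPM in PLX3397 and 10.7 ± 0.777 TPM in sham mice. Crybb1, a crystallin expressed by microglia, had 8.04 ± 1.003, 2.18 ± 0.584 and 5.29 ± 1.64 TPM. Slc2a5, a fructose transporter, had 5.08 ± 0.365, 1.38 ± 0.386 and 3.58 ± 0.226 TPM. Fcrls, an Fc receptor-like gene, instead remained at 116 ± 26.8 TPM in PLX3397 mice against 24.2 ± 3.04 TPM in sham mice, after 277 ± 43.9 TPM in vehicle mice.

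Genes of activated phagocytes fell too, but most of them with overlap between the mice. Of 15 genes 12 fell, with a median log2 fold change of -0.67, and 5 did not overlap between the groups. All 15 remained above sham in PLX3397 mice, in a comparison that called 22.7% of all genes higher. In the fit of the 10 compared libraries 7 passed. Clec7a, the beta-glucan receptor dectin-1, fell most, from 31.1, 30.7, 41.6, 37.4 and 38.7 TPM in vehicle mice to 12.4, 20.7, 12.5, 14.2 and 14.7 TPM in PLX3397 mice (-1.23 ± 0.15, adjusted p = 1.75e-06). Trem2 (chr17:48346401-48352276), a lipid-sensing receptor, and its signalling adaptor Tyrobp had log2 fold changes of -1.001 and -0.98, to 50.2% and 51.02% of vehicle. Spp1, which encodes the secreted protein osteopontin, had 4168, 1962, 4473, 5046 and 3037 TPM in vehicle and 1546, 2911, 2082, 1594 and 2144 TPM in PLX3397 mice. The groups overlapped, as the vehicle mouse J17B lay below 3 of the 5 PLX3397 mice, and the log2 fold change was -0.83 ± 0.204, adjusted p = 0.00908. The other 3 members did not pass the test. Fabp5, a fatty acid binding protein, had 623 ± 92.6 and 613 ± 73.2 TPM (-0.018 ± 0.104, adjusted p = 0.942), Itgax, the integrin CD11c, had 7.03 ± 1.85 and 5.95 ± 1.69 TPM (-0.21 ± 0.17, adjusted p = 0.532), and the tetraspanin Cd63 had 574 ± 90.98 and 456 ± 75.98 TPM (-0.33 ± 0.12, adjusted p = 0.0684).

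**Figure D3:**
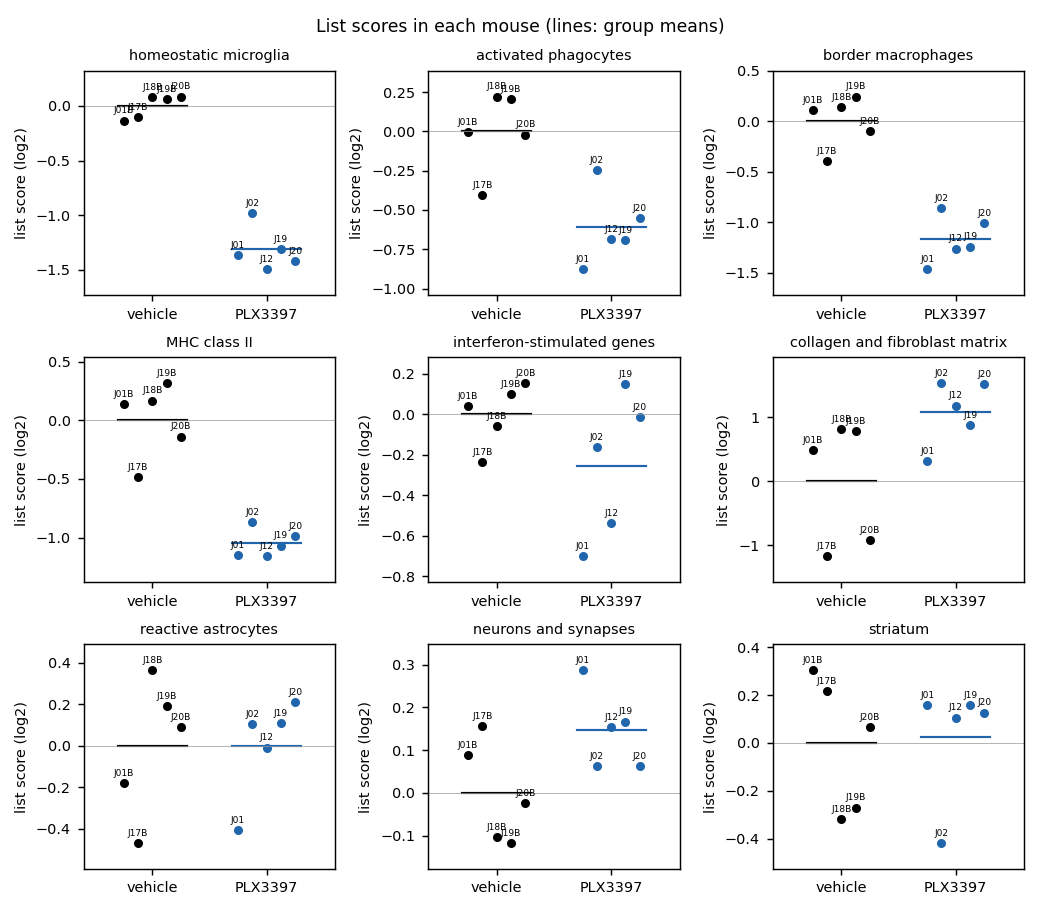
List scores of the 10 mice for 9 gene lists, as the mean of log2(TPM + 1) over a list minus its mean in vehicle mice, with 1 labelled point per mouse and a line at each group mean. The homeostatic microglial scores run from -1.495 to -0.985 in PLX3397 mice and from -0.13 to 0.087 in vehicle mice, whereas activated phagocyte and matrix scores overlap and J17B lies low in both.

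Genes of border-associated macrophages, the macrophages of meninges and vessels, fell too. Of 11 genes 10 fell, with a median of -1.26, and 8 did not overlap between the groups. Mrc1 (chr2:14229414-14332023), the mannose receptor CD206, had 5.88, 4.48, 6.74, 7.604 and 5.41 TPM in vehicle and 0.649, 1.24, 0.898, 0.766 and 1.38 TPM in PLX3397 mice. The groups were well apart, and PLX3397 mice kept 16.4% of the vehicle mean, a level also below that of sham mice (2.37 ± 0.512 TPM, adjusted p = 1.47e-04). Cd163, the receptor of haemoglobin-haptoglobin complexes, was low throughout and fell from 1.45 ± 0.223 to 0.305 ± 0.111 TPM (-0.91 ± 0.105, adjusted p = 8.71e-07). Cbr2, a carbonyl reductase of these cells, fell from 7.56 ± 1.58 to 2.001 ± 0.735 TPM (-1.52 ± 0.15, adjusted p = 1.35e-07). Pf4 and F13a1, which platelets and monocytes express too, overlapped between the groups. Pf4 fell from 63.1 ± 20.1 to 30.6 ± 8.57 TPM (-1.002 ± 0.22, adjusted p = 0.00406) and remained above the 3.66 ± 1.43 TPM of sham mice. Lyve1, a hyaluronan receptor, did not pass the test at 0.526 ± 0.307 and 0.223 ± 0.105 TPM (-0.301 ± 0.13, adjusted p = 0.154).

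All 9 leukocyte genes fell, against 6.66% of all genes, with a median of -1.05. None overlapped between the groups, whereas 4.91% of all genes had all PLX3397 mice below all vehicle mice. Itgam, the integrin CD11b, had 81.9, 62.3, 91.9, 89.0 and 84.03 TPM in vehicle and 24.8, 38.9, 27.3, 32.5 and 28.5 TPM in PLX3397 mice (-1.403 ± 0.102, adjusted p = 1.56e-09). Aif1, the calcium-binding protein IBA1 used to stain microglia, fell from 68.4 ± 11.8 to 26.03 ± 4.65 TPM (-1.36 ± 0.12, adjusted p = 2.67e-08). Ptprc, the pan-leukocyte phosphatase CD45, fell from 14.6 ± 2.26 to 7.31 ± 1.15 TPM (-0.91 ± 0.12, adjusted p = 1.06e-05). Coro1a, an actin regulator, fell least, from 117 ± 2.55 to 103 ± 7.22 TPM (-0.18 ± 0.053, adjusted p = 0.0328), and its adjusted p rose above 0.05 when any of 5 mice was left out.

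Transcription factors of myeloid cells fell with them, 9 of 11 with a median of -0.88. Lyl1, a haematopoietic factor, fell most, from 15.01 ± 2.72 to 5.62 ± 0.615 TPM (-1.26 ± 0.11, adjusted p = 1.44e-08). Irf8, needed for microglia and monocytes, had 30.5, 25.8, 37.3, 34.1 and 32.1 TPM in vehicle and 10.6, 18.7, 12.1, 11.8 and 12.5 TPM in PLX3397 mice (-1.24 ± 0.13, adjusted p = 1.81e-07). Spi1, which encodes PU.1, an ETS factor that binds purine-rich GGAA sites and drives myeloid genes, fell from 33.1 ± 5.07 to 13.8 ± 3.37 TPM (-1.22 ± 0.13, adjusted p = 2.40e-07). Mef2c, which neurons express too, had 165 ± 17.7 and 176 ± 18.5 TPM (0.093 ± 0.072, adjusted p = 0.49), and Cebpb had 29.9 ± 4.94 and 25.6 ± 4.42 TPM (-0.22 ± 0.12, adjusted p = 0.321). Neither passed the test.

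Since Spi1 was among the genes that fell, the promoters of the DEGs were searched for GAGGAAGT, a form of the PU.1 site, on either strand, in the 250 bases before and 50 bases after each RefSeq start of GRCm38. Windows were found for 119 of the 161 lower DEGs, and 20 of their 139 windows (14.4%) held the motif. The share was 8.26% among windows of all genes that fell, 2.07% among those that rose, 2.96% among genes tested and 3.2% among all promoters. None of the 7 windows of higher DEGs held it. The motif and the genes shown were chosen after the values were seen. A match is a description of the letters, not a bound site. For 6 lower DEGs, 60 bases with the match in capitals (ACTTCCTC where it lies on the other strand) are printed 5′ to 3′ on the gene's strand, from RefSeq on GRCm38.p6, to show where it stands.
Inpp5d (chr1:87620252-87620311, plus strand): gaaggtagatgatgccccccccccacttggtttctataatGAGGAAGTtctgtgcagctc
C1qc (chr4:136893076-136893135, minus strand): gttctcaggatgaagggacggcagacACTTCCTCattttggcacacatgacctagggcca
Pf4 (chr5:90772375-90772434, plus strand): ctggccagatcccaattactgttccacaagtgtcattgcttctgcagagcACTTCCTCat
Hpgds (chr6:65144746-65144805, minus strand): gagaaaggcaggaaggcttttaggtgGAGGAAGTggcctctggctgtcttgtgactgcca
Pycard (chr7:127993878-127993937, minus strand): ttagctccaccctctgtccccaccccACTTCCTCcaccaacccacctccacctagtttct
Vav1 (chr17:57279040-57279099, plus strand): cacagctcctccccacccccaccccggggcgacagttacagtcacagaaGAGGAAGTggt
In these windows the match began 10 bases before the start in Pf4, 11 in Vav1, 20 in Inpp5d, 44 in Pycard, 49 in Hpgds and 195 in C1qc. Inpp5d encodes the phosphatase SHIP1, Vav1 a guanine nucleotide exchange factor of blood cells, and Hpgds a prostaglandin D synthase. Pycard and C1qc are described with the inflammasome and complement genes.

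Genes of cells that enter from the blood were mostly too low to be tested, and those tested moved unevenly. Of 5 monocyte genes 3 were tested, and Ccr2, the chemokine receptor of inflammatory monocytes, fell from 2.23 ± 0.589 to 0.8002 ± 0.351 TPM (-0.84 ± 0.14, adjusted p = 1.32e-04), while Ly6c2 had 1.42 ± 0.862 and 1.999 ± 1.43 TPM (0.26 ± 0.33, adjusted p = 0.705). Of 11 neutrophil genes 5 were tested and 2 fell. Csf3r, the G-CSF receptor, which microglia express as well, fell from 19.6 ± 2.54 to 8.78 ± 2.23 TPM (-1.09 ± 0.12, adjusted p = 3.50e-07), and the collagenase Mmp8 from 3.82 ± 0.437 to 2.37 ± 0.515 TPM (-0.52 ± 0.11, adjusted p = 0.00209). S100a8, a subunit of the neutrophil protein calprotectin, had 11.2, 2.76, 21.6, 12.3 and 9.64 TPM in vehicle and 7.45, 23.05, 13.5, 17.3 and 33.02 TPM in PLX3397 mice. Its groups overlapped, and neither it (0.73 ± 0.397, adjusted p = 0.288) nor its partner S100a9 (0.58 ± 0.46, adjusted p = 0.494) passed the test. Of 13 lymphocyte genes 3 were tested, and only Cd79b, a B cell receptor subunit that microglia also express, fell (-0.63 ± 0.13, adjusted p = 0.00183). Cd4 had 16.4 ± 1.72 and 17.4 ± 2.44 TPM (0.076 ± 0.095, adjusted p = 0.702).

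Among complement genes 6 of 11 fell, among them those of C1q and of both anaphylatoxin receptors, and the median of the list was -0.43. For 6 of the 11 the groups overlapped. C1qa, a chain of C1q, which microglia make, had 1168, 958, 1303, 1385 and 1242 TPM in vehicle and 442, 696, 461, 502 and 499 TPM in PLX3397 mice, without overlap (-1.23 ± 0.102, adjusted p = 9.52e-09). C1qb and C1qc fell to 46.8% and 45.3% of vehicle. C5ar1, the receptor of the anaphylatoxin C5a, fell from 20.3 ± 5.54 to 7.76 ± 0.879 TPM (-1.25 ± 0.16, adjusted p = 5.88e-06). C4b had 169 ± 20.7 and 152 ± 13.9 TPM (-0.15 ± 0.085, adjusted p = 0.319), C3 had 13.5 ± 3.92 and 9.57 ± 1.91 TPM (-0.43 ± 0.18, adjusted p = 0.144), and C1s1, a protease of the C1 complex, had 4.21 ± 1.83 and 5.696 ± 1.17 TPM (0.41 ± 0.17, adjusted p = 0.131).

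All 5 genes of Fc gamma receptors fell, with a median of -1.25. Fcgr3 fell from 85.8 ± 10.9 to 33.7 ± 8.17 TPM (-1.35 ± 0.12, adjusted p = 2.89e-08), and Fcgr4 moved least, from 14.97 ± 3.27 to 9.19 ± 2.39 TPM (-0.65 ± 0.16, adjusted p = 0.00995). Of 10 Toll-like receptor genes tested 8 fell, with a median of -0.87. Tlr7, an endosomal sensor of single-stranded RNA, fell from 18.9 ± 2.74 to 7.04 ± 2.005 TPM (-1.33 ± 0.14, adjusted p = 2.53e-07), and Tlr13, a sensor of bacterial ribosomal RNA, from 17.4 ± 1.898 to 7.72 ± 1.84 TPM (-1.098 ± 0.13, adjusted p = 1.95e-06). Tlr3, the sensor of double-stranded RNA that astrocytes express too (-0.12 ± 0.097, adjusted p = 0.525), and Tlr12 (-0.16 ± 0.14, adjusted p = 0.547) did not pass the test.

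Antigen presentation genes fell, with a median of -1.32 for MHC class II and of -0.46 for class I. Whether the lists differ was not tested. Of 7 class II genes 6 fell. H2-Ab1 (chr17:34263227-34269418), a class II beta chain, had 33.6, 15.99, 33.6, 39.9 and 19.9 TPM in vehicle and 7.78, 9.33, 7.48, 6.42 and 7.09 TPM in PLX3397 mice. The treated mice lay close together below all vehicle mice, of which J17B and J20B were lowest (-1.71 ± 0.21, adjusted p = 1.73e-06). Cd74, the invariant chain, fell from 44.9 ± 14.8 to 14.9 ± 1.68 TPM (-1.46 ± 0.19, adjusted p = 4.92e-06), and H2-DMa, which loads peptides, moved least among those that fell (-0.26 ± 0.0701, adjusted p = 0.0179). Ciita, the master activator of class II genes, had 0.836 ± 0.137 and 0.5204 ± 0.185 TPM (-0.28 ± 0.099, adjusted p = 0.0807). Of 8 class I genes 6 fell, among them B2m, the light chain of class I molecules, from 943 ± 77.02 to 604 ± 92.5 TPM (-0.65 ± 0.094, adjusted p = 2.30e-05), and the immunoproteasome subunit Psmb8 (-0.66 ± 0.13, adjusted p = 8.33e-04). Tap2, a peptide transporter subunit, did not pass (-0.24 ± 0.089, adjusted p = 0.1). For 6 of the 8 class I genes the groups overlapped.

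Of 14 interferon-stimulated genes 3 fell, against 6.66% of all genes, with a median of the list of -0.16, and 1 did not overlap between the groups. Ifi27l2a, an interferon-induced gene of microglia, had 43.3, 45.3, 33.6, 36.1 and 45.3 TPM in vehicle and 9.77, 21.7, 12.2, 21.5 and 20.7 TPM in PLX3397 mice (-1.25 ± 0.21, adjusted p = 1.75e-04). Bst2, the virus-tethering protein tetherin, fell by 0.58 on the log2 scale (adjusted p = 0.00374) and Oas1a, an RNA sensor, by 0.51 (adjusted p = 0.0424), which was lost when any of 6 mice was left out. Ifit1, which binds viral RNA, had 20.5, 17.9, 19.6, 21.6 and 25.2 TPM in vehicle and 18.1, 22.9, 17.7, 32.1 and 27.03 TPM in PLX3397 mice (0.14 ± 0.15, adjusted p = 0.668). The list scores of PLX3397 mice ran from -0.70 in J01 and -0.54 in J12 to 0.15 in J19, a wider range than in vehicle mice (-0.24 to 0.15).

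In the interleukin-1 axis, the inflammasome genes fell and the cytokine gene Il1b did not pass the test. Of 10 genes 4 fell, with a median of -0.15. Pycard (chr7:127991373-127993867), the inflammasome adaptor ASC, fell from 23.6 ± 3.99 to 10.9 ± 2.24 TPM (-1.05 ± 0.13, adjusted p = 1.75e-06). Nlrp3, the sensor, fell from 3.25 ± 0.825 to 1.17 ± 0.183 TPM (-0.95 ± 0.11, adjusted p = 1.33e-06), and Casp1, the protease that matures interleukin-1 beta, from 9.23 ± 1.2002 to 5.13 ± 0.769 TPM (-0.74 ± 0.13, adjusted p = 3.52e-04). Il1a fell from 1.58 ± 0.326 to 0.933 ± 0.252 TPM (-0.42 ± 0.0998, adjusted p = 0.00718). Il1b was low, with 0.676, 0.511, 0.334, 0.7297 and 0.439 TPM in vehicle and 0.752, 0.541, 0.5698, 1.399 and 1.27 TPM in PLX3397 mice. J19 and J20 were highest, the groups overlapped and the test was not passed (0.29 ± 0.13, adjusted p = 0.174). Il1r1, the receptor that Anakinra blocks, had 8.87 ± 1.89 and 10.4 ± 2.03 TPM (0.21 ± 0.13, adjusted p = 0.365), and Il18 had 28.7 ± 2.31 and 27.1 ± 3.04 TPM (-0.083 ± 0.065, adjusted p = 0.493).

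Of 12 chemokine genes 7 fell and 1 rose, with a median of -0.54, and 8 of the 12 overlapped between the groups. Ccl9 fell from 11.2 ± 2.44 to 4.25 ± 1.101 TPM (-1.22 ± 0.15, adjusted p = 1.84e-06) and Ccl8, a monocyte attractant, from 4.57 ± 1.38 to 1.403 ± 0.685 TPM (-1.22 ± 0.23, adjusted p = 7.69e-04). Ccl5, an attractant of T cells, had 5.95, 4.58, 7.35, 3.86 and 5.65 TPM in vehicle and 5.24, 10.6, 5.43, 10.7 and 5.15 TPM in PLX3397 mice, where J02 and J19 stood high, and did not pass the test (0.33 ± 0.21, adjusted p = 0.367). Cxcl12, made by vessels, meninges and neurons, was the member that rose, from 29.9, 27.3, 33.4, 33.9 and 26.4 TPM in vehicle to 34.3, 40.97, 40.9, 35.3 and 41.5 TPM in PLX3397 mice, without overlap (0.35 ± 0.067, adjusted p = 8.90e-04). Of the 7 that fell, 4 passed without a filter on low values, and 3 passed with a pseudocount of 0.1 or in the fit of the 10 libraries alone.

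Genes for the digestion and export of debris fell broadly. Of 14 lysosomal genes 12 fell, with a median of -0.75, and 7 of the 14 overlapped between the groups. Grn, the lysosomal growth factor progranulin, fell from 483 ± 74.3 to 238 ± 41.7 TPM (-1.02 ± 0.11, adjusted p = 2.40e-07), and Ctss, a cathepsin of phagocytes, from 808 ± 91.8 to 403 ± 80.8 TPM (-1.02 ± 0.11, adjusted p = 2.53e-07). Ctsd, an aspartic cathepsin, fell from 5419.8 ± 739 to 2916 ± 539.9 TPM (-0.901 ± 0.11, adjusted p = 1.24e-06). Ctsk, a collagen-digesting cathepsin of fibroblasts and osteoclasts, had 11.7, 6.47, 17.4, 15.9 and 6.78 TPM in vehicle and 11.7, 27.7, 16.7, 18.5 and 25.6 TPM in PLX3397 mice and did not pass the test (0.77 ± 0.26, adjusted p = 0.06).

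Of 9 lipoprotein and lipid efflux genes 8 fell, with a median of -0.61. Ch25h, which makes 25-hydroxycholesterol, fell from 25.1 ± 5.22 to 9.36 ± 0.863 TPM (-1.31 ± 0.18, adjusted p = 1.06e-05), and Apoc2, the cofactor of lipoprotein lipase, from 35.3 ± 5.85 to 14.8 ± 3.19 TPM (-1.21 ± 0.15, adjusted p = 3.99e-06). Apoe, made by astrocytes and activated microglia, fell from 8335 ± 989 to 5465 ± 607 TPM (-0.61 ± 0.086, adjusted p = 1.98e-05). Of 9 heme and iron genes 3 fell, against 6.66% of all genes, and 8 of the 9 overlapped between the groups. Among those that fell were the ferritin light chain Ftl1, from 4535 ± 922 to 3083 ± 484 TPM (-0.55 ± 0.12, adjusted p = 0.00409), and the endosomal metal transporter Slc11a1 (-0.78 ± 0.14, adjusted p = 5.16e-04). Hmox1, heme oxygenase, varied widely, with 366, 166, 376, 505 and 239.9 TPM in vehicle and 133, 320.0, 210.2, 338 and 332 TPM in PLX3397 mice, and did not pass (-0.29 ± 0.25, adjusted p = 0.541).

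The list with the lowest median was that of red blood cell transcripts. All 5 erythroid genes tested fell, with a median of -1.81, and none overlapped between the groups. Hbb-bs (chr7:103826523-103827928), a beta globin, had 811, 556, 1159, 1617 and 1469 TPM in vehicle and 203, 342, 258, 255 and 378 TPM in PLX3397 mice (-1.896 ± 0.21, adjusted p = 6.84e-07). The treated mice lay within a narrower band than the vehicle mice, of which J17B was the lowest, and the mean was also below the 973 ± 240.3 TPM of sham mice (adjusted p = 7.79e-07). Hba-a1 and Hbb-bt fell to 27.01% and 23.98% of vehicle. The globin copies are nearly identical, and how the mapping divided reads between them is not known. Alas2, the erythroid enzyme that starts heme synthesis, fell from 7.795 ± 3.44 to 1.84 ± 0.531 TPM (-1.54 ± 0.25, adjusted p = 1.10e-04). Vehicle and sham mice did not differ beyond the threshold in any of the 5 genes. Rescaling each library without these genes moved no other gene named here across the threshold.

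Fibroblast matrix genes were the largest group that rose, but with overlap between the mice. Of 16 genes 11 rose, with a median of 1.09, and for 0 of the 16 were the PLX3397 mice all above the vehicle mice. Col3a1 (chr1:45311538-45349706), a fibrillar collagen, had 139.8, 8.75, 169, 179.6 and 15.9 TPM in vehicle and 114, 269, 219, 167 and 293 TPM in PLX3397 mice (1.78 ± 0.56, adjusted p = 0.0427). Among vehicle mice J17B and J20B were far below the other 3, which lay within the range of the PLX3397 mice. Col1a1 had the same shape, with 169, 15.1, 206, 196 and 23.4 TPM in vehicle and 132, 348, 298, 171 and 302 TPM in PLX3397 mice (1.61 ± 0.51, adjusted p = 0.0473), and its partner chain Col1a2 did not pass (1.44 ± 0.47, adjusted p = 0.052). Postn, the matricellular protein periostin, rose from 12.4 ± 7.79 to 36.9 ± 14.8 TPM (1.65 ± 0.35, adjusted p = 0.00275), and Mfap4, a microfibril protein, from 10.8 ± 6.87 to 29.6 ± 11.9 TPM (1.52 ± 0.35, adjusted p = 0.00481). Fn1, fibronectin, moved least (0.24 ± 0.23, adjusted p = 0.593).

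The call of matrix genes depended on single mice. With any 1 of the 10 mice left out, between 4 and 14 of the 16 passed, 4 without the vehicle mouse J20B and 4 without the PLX3397 mouse J20. In the fit of the 10 compared libraries 2 passed, and without a filter on low values 5. The matrix score of J17B and J20B was -1.17 and -0.92, against 0.49 to 0.82 in the other vehicle mice and 0.31 to 1.53 in PLX3397 mice. The part that the makeup of the sections had in this was not tested.

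H19, an imprinted non-coding RNA (chr7:142575530-142578146), rose most of the higher DEGs, with 29.96, 4.61, 60.2, 60.4 and 6.14 TPM in vehicle and 48.5, 163, 145, 99.6 and 158 TPM in PLX3397 mice (2.397 ± 0.498, adjusted p = 0.002). It followed the same 2 vehicle mice and was listed at 0.459 TPM on average in sham mice. Its imprinted neighbour Igf2, a growth factor, rose by 0.4004 (adjusted p = 0.0355), which was lost when any of 7 mice was left out. Of 7 imprinted growth and retinoid genes 3 rose and 4 did not pass, in a comparison that called 3.23% of all genes higher. Their log2 fold changes ran from -0.091 to 2.397, and 6 of the 7 overlapped between the groups. Crabp1, a cytoplasmic retinoic acid carrier, was the only higher DEG to combine an adjusted p below 0.05 with groups that did not overlap, with 11.2, 9.28, 8.96, 11.6 and 6.41 TPM in vehicle and 12.7, 22.5, 32.3, 19.5 and 24.2 TPM in PLX3397 mice (1.12 ± 0.21, adjusted p = 5.76e-04). Of the other higher DEGs, Mgp, a matrix protein that restrains calcification, Itgbl1, an integrin beta-like protein, and Lrrc17, a leucine-rich repeat protein, had log2 fold changes of 1.09, 0.92 and 1.504. Lum, Col5a2, Col12a1 and Aspn, members of the matrix list, had log2 fold changes of 1.14, 1.18, 1.04 and 0.92. The last 2 were the predicted genes Gm13308, which had 1.89, 0.6205, 0.579, 0.277 and 5.11 TPM in vehicle and 8.52, 10.1, 5.19, 4.25 and 8.56 TPM in PLX3397 mice (1.83 ± 0.43, adjusted p = 0.00565), and Gm21541, the only higher DEG that did not pass after adjustment (0.98 ± 0.402, adjusted p = 0.136).

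Most genes of astrocytes, endothelium and neural cells did not pass the test. None of the 10 reactive astrocyte genes passed the test, with a median of -0.085. Gfap, the intermediate filament of reactive astrocytes, had 1593, 1589, 2437, 2022 and 2085 TPM in vehicle and 1576, 1882, 1854, 1836 and 1903 TPM in PLX3397 mice against 115 ± 7.31 TPM in sham mice (-0.087 ± 0.097, adjusted p = 0.658), with an interval of the log2 fold change from -0.29 to 0.11. Timp1, a metalloproteinase inhibitor, had 40.6 ± 18.4 and 58.1 ± 22.6 TPM (0.53 ± 0.26, adjusted p = 0.225). None of the 10 endothelial genes passed, for example Cldn5, a tight junction protein (-0.053 ± 0.089, adjusted p = 0.784), and none of 6 choroid plexus, 8 immediate early, 6 striatal or 3 dentate gyrus genes did. Of 9 homeostatic astrocyte genes only Aldoc, an aldolase, rose (0.16 ± 0.049, adjusted p = 0.0416), and of 7 pericyte and smooth muscle genes only Acta2, smooth muscle actin (0.78 ± 0.23, adjusted p = 0.0326). Each was lost on leaving out single mice, Aldoc with any of 9 and Acta2 with any of 6.

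**Figure D4:**
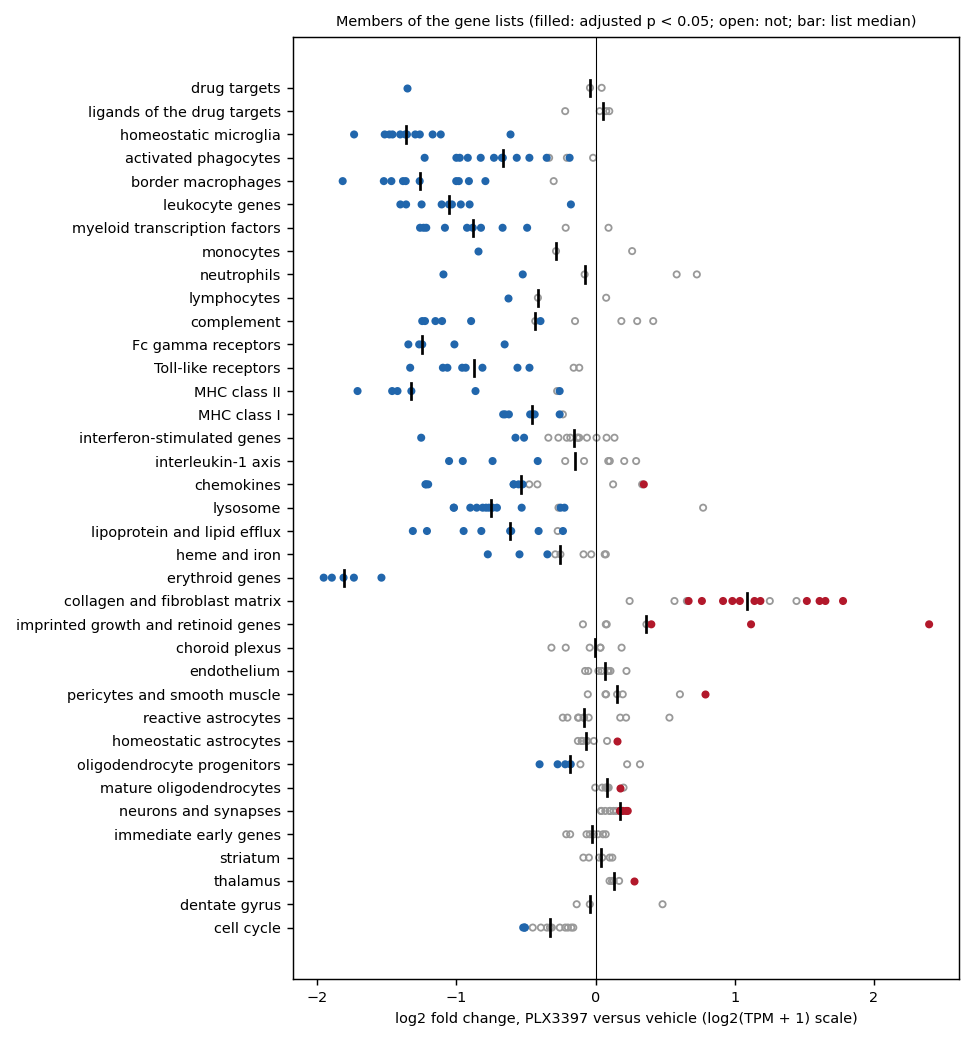
Log2 fold changes of PLX3397 versus vehicle for the tested members of 37 gene lists, filled where the adjusted p was below 0.05 and with a bar at the median of the list. Lists of microglia, macrophages and leukocytes lie left of 0, erythroid genes furthest left, the matrix list right of 0, and astrocyte, endothelial and neural lists around 0.

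Oligodendrocyte genes moved by small amounts. Of 8 progenitor genes 4 fell and 4 did not pass the test. Of the 8, 2 lay on the higher side, with a largest log2 fold change of 0.32. Cspg4, the proteoglycan NG2, fell from 15.6 ± 2.09 to 11.6 ± 1.68 TPM (-0.403 ± 0.096, adjusted p = 0.0067), and Pdgfra, the growth factor receptor of progenitors, from 29.3 ± 2.49 to 24.99 ± 1.63 TPM (-0.22 ± 0.061, adjusted p = 0.0214). Gpr17, a receptor of differentiating progenitors, fell by 0.27 (adjusted p = 0.0277) and the transcription factor Olig1 by 0.18 (adjusted p = 0.00681). Of 8 genes of mature oligodendrocytes only Mbp, myelin basic protein, rose, from 1735 ± 54.4 to 1959.5 ± 91.3 TPM (0.17 ± 0.051, adjusted p = 0.0269), and this was lost when any of 5 mice was left out. In the fit of the 10 libraries, or without the vehicle mouse J01B, 2 of the progenitor genes passed as lower.

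All 15 neuronal and synaptic genes lay on the higher side and 5 rose, with a median of 0.18. Syp, the synaptic vesicle protein synaptophysin, had 1123, 1146, 1006, 972 and 1074 TPM in vehicle and 1349.9, 1204, 1276, 1219 and 1145 TPM in PLX3397 mice (0.22 ± 0.049, adjusted p = 0.00371). The groups touched, and both were below the 1599 ± 36.4 TPM of sham mice. Nefl, the neurofilament light chain, rose from 348 ± 28.4 to 408 ± 30.2 TPM (0.23 ± 0.058, adjusted p = 0.00995). Tubb3, Syt1 and Grin1 rose by 0.18, 0.18 and 0.19, and Snap25, a synaptic fusion protein, did not pass (0.15 ± 0.0604, adjusted p = 0.127). Of the 10 fits with 1 mouse left out, Tubb3 passed in 6, Syt1 in 5 and Grin1 in 4. In the fit of the 10 libraries alone 0 of the 15 passed. After rescaling each library by its median ratio to the geometric mean, 5 of the 15 passed as higher, whereas Aldoc, Mbp, Igf2, Col1a1 and Coro1a no longer passed the test. Of 5 thalamic genes Slc17a6, a glutamate transporter, rose (0.27 ± 0.086, adjusted p = 0.0429), which was lost on leaving out any of 9 mice.

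All 13 cell cycle genes lay on the lower side, with a median of the list of -0.33. Of the 13, 3 fell, against 6.66% of all genes, and all 13 overlapped between the groups. Top2a, a topoisomerase, fell from 18.1 ± 4.29 to 12.2 ± 2.17 TPM (-0.52 ± 0.15, adjusted p = 0.0214), and Mki67, the proliferation marker, from 10.4 ± 2.25 to 6.96 ± 1.16 TPM (-0.51 ± 0.13, adjusted p = 0.00937). Mcm3, a subunit of the replicative helicase, had 14.6, 11.2, 18.6, 17.6 and 15.8 TPM in vehicle and 9.24, 11.9, 11.4, 9.03 and 11.1 TPM in PLX3397 mice (-0.51 ± 0.11, adjusted p = 0.00211). J17B was the vehicle mouse nearest to the PLX3397 mice, and without it 10 of the 13 passed as lower. In the fit of the 10 compared libraries 1 passed. All 13 were above sham in both groups, where 26.6% of all genes were higher in vehicle and 22.7% in PLX3397 mice.

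Among genes that did not overlap and averaged at least 4 TPM in either group and passed the test, the 10 largest falls were those of Hbb-bt, Hbb-bs, Mrc1, Hba-a1, Hba-a2, P2ry12, H2-Ab1, Alas2, Cd33 and Cbr2. Cd33, an inhibitory sialic acid receptor of microglia, fell from 15.7 ± 2.61 to 4.84 ± 1.09 TPM (-1.53 ± 0.13, adjusted p = 1.48e-08). The 10 largest rises in that class were smaller and belonged to Crabp1, 9630013A20Rik, LOC105247259, Fam180a, Pemt, Gpc3, Col6a1, Zbtb16, Rnf122 and Fcor. The non-coding transcript 9630013A20Rik had 5.62, 6.45, 5.89, 5.64 and 5.23 TPM in vehicle and 11.3, 7.502, 13.6, 10.6 and 11.02 TPM in PLX3397 mice (0.79 ± 0.18, adjusted p = 0.00426). Pemt, a phosphatidylethanolamine methyltransferase, rose from 2.89 ± 0.386 to 5.02 ± 1.13 TPM (0.62 ± 0.13, adjusted p = 0.00254), and Col6a1, a collagen VI chain, from 72.5 ± 13.3 to 98.4 ± 8.49 TPM (0.45 ± 0.104, adjusted p = 0.0054). The other 6 rose by 0.39 to 0.71.

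The smallest p-values among falls belonged to Selplg, Csf1r, Cyth4, Cx3cr1 and Capn3. Selplg, the P-selectin ligand PSGL-1, had 57.7, 54.8, 62.1, 63.7 and 63.3 TPM in vehicle and 21.8, 29.04, 20.8, 20.6 and 18.4 TPM in PLX3397 mice (-1.42 ± 0.086, adjusted p = 2.04e-10). The mean of PLX3397 mice was below that of sham mice (27.9 ± 2.58 TPM), but J02 at 29.04 TPM was above it. Cyth4, an exchange factor of ARF GTPases, fell from 54.3 ± 6.37 to 22.5 ± 3.68 TPM (-1.24 ± 0.084, adjusted p = 6.95e-10), and Capn3, a calpain protease, from 9.68 ± 0.871 to 4.29 ± 0.497 TPM (-1.01 ± 0.071, adjusted p = 9.40e-10). Among rises they belonged to Adck3, Mthfd1l, Fdft1, Rnf122 and Cend1, of which none changed by more than 0.41. Adck3, a kinase-like protein of coenzyme Q synthesis, had 20.8, 19.6, 19.5, 19.7 and 21.99 TPM in vehicle and 24.2, 27.1, 25.6, 26.6 and 25.8 TPM in PLX3397 mice (0.33 ± 0.054, adjusted p = 9.90e-05). Fdft1, squalene synthase of the cholesterol pathway, rose from 22.2 ± 0.9698 to 26.7 ± 1.45 TPM (0.26 ± 0.043, adjusted p = 1.89e-04), and Cend1, a protein of neuronal differentiation, from 326 ± 15.3 to 391 ± 14.3 TPM (0.26 ± 0.044, adjusted p = 2.09e-04).

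To see whether the effect recurred in other mice, PLX3397+Anakinra was compared with Anakinra, 5 mice each, which share no mouse with the comparison above. There 1399 genes (8.1%) were lower and 807 (4.67%) higher. Of the 1150 genes lower after PLX3397 alone, 889 (77.3%) were lower again, which was 63.5% of the 1399, and 0 were higher. All 161 lower DEGs were lower again, with a median log2 fold change of -1.13 without and -1.36 with Anakinra in both groups. Of the 557 genes higher after PLX3397 alone, 149 (26.8%) were higher again, which was 18.5% of the 807, and 0 were lower. None of the 15 higher DEGs was higher again, and their median log2 fold change was 1.18 in the first and 0.021 in the second comparison. Csf1r had a log2 fold change of -1.501 in the second comparison (adjusted p = 4.86e-11) and P2ry12 of -1.69 (adjusted p = 3.95e-09).

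**Figure D5:**
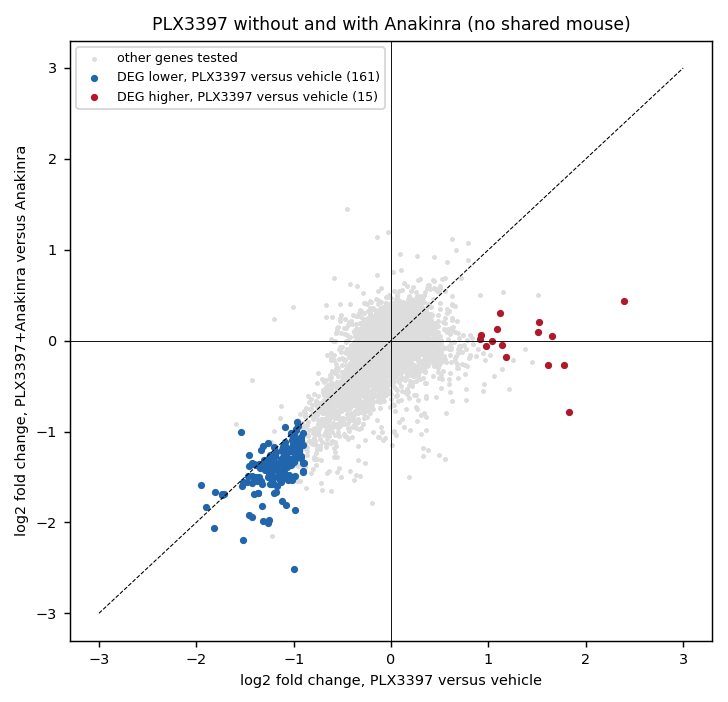
Log2 fold change of PLX3397 versus vehicle on the horizontal axis and of PLX3397+Anakinra versus Anakinra on the vertical axis for 17267 genes, with a dashed line where both are equal. The 161 lower DEGs of the first comparison all lie below 0 in both, whereas the 15 higher DEGs lie around 0 in the second.

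The difference between both PLX3397 effects was itself tested, and 0 genes passed at an adjusted p below 0.05, the smallest being 0.153. Of all 17267 genes tested, 1395 had an unadjusted p below 0.05, a limit that makes no allowance for the number of genes. All 14 interferon-stimulated genes were among the 1395. They had a median of -0.16 after PLX3397 alone and -1.07 in the second comparison, where 14 of 14 fell. Against vehicle mice, their median was 0.49 in Anakinra mice and -0.65 in PLX3397+Anakinra mice. Ifit1 had 30.5 ± 6.83 TPM in Anakinra and 15.2 ± 2.69 TPM in PLX3397+Anakinra mice, a log2 fold change of -0.95 (adjusted p = 7.95e-05, and of the difference 0.153). Of the 16 matrix genes 15 were among the 1395, with medians of 1.09 and -0.20. Without the PLX3397 mouse J01, 9 genes passed the test of the difference. Col1a1 had 334 ± 118 TPM in Anakinra and 271 ± 66.2 TPM in PLX3397+Anakinra mice, so that both of these groups and PLX3397 lay above vehicle on average. Against the same vehicle mice, which these comparisons share, the 15 higher DEGs had a median of 1.18 after PLX3397, 1.25 after Anakinra and 1.28 after PLX3397+Anakinra.

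Set against sham mice, 140 of the 161 lower DEGs were above sham after PLX3397, 11 were below it and 10 did not pass the test. That comparison called 22.7% of all genes higher and 22.5% lower. The 161 were chosen with the values of these same PLX3397 mice. Genes of homeostatic microglia had a median log2 difference from sham of 1.22 in vehicle and 0.14 in PLX3397 mice. The medians were 3.10 and 2.46 for activated phagocytes, 2.27 and 0.90 for MHC class II, and 3.40 and 3.24 for reactive astrocytes.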

How the data were processed

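RNA from cryosections of 24 mouse brains was sequenced for the study by a sequencing provider, 1 library per mouse, as paired-end Illumina reads. The authors trimmed, mapped and counted the reads in CLC Genomics Workbench against mm10 (GRCm38 in the labels) and deposited expression as TPM, which sums to 1000000 in each library. The other deposited tables hold the same TPM rounded, and columns of the authors' own comparisons, which were not used.

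Genes averaging 0.5 TPM or more across the 24 libraries were compared on log2(TPM + 1) with limma 3.58.1 in R 4.3.3, with a variance trend, 1 mean per group and all 24 libraries. P-values were adjusted by Benjamini-Hochberg over all genes tested, and the threshold was 0.05. The script was tested on simulated data. Named genes were list members that define a list or moved most or least, the 10 largest falls and rises at a mean of at least 4 TPM without overlap, the 5 smallest p-values in each direction and all higher DEGs. The members and gene lists were chosen with earlier results of these data known. No read counts were used, so depth and counting error are unknown. Promoter sequences and gene positions are from RefSeq (GRCm38.p6). The alternatives were another pseudocount, other filters, rescaling, fewer libraries and a replicate block. Some members of the lists are counted but not reported singly here.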

Additional observations from a re-analysis of the deposited data

Results flagged for a closer look

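Values of the named genes and list scores were screened in the vehicle and the PLX3397 group for a mouse whose gap to the nearest other mouse was above 0.71 of the range of the group. Of 394 groups of values 19 had such a mouse. The limit has a nominal rate of 1 in 20 for independent, normally distributed values. Genes of a list move together in a mouse and the scores are averages of genes, so the share cannot be judged against that rate.

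Among PLX3397 mice, J02 stood above the others for microglial genes. It had 32.6 TPM of Tmem119 (21.96 to 24.4 in the other 4), 20.7 TPM of Clec7a (12.4 to 14.7), 185 TPM of Trem2 (112 to 129), 18.7 TPM of Irf8 (10.6 to 12.5) and 696 TPM of C1qa (442 to 502). Its score of the drug targets was -0.18 against -0.54 to -0.50, and its striatal score of -0.42, against 0.11 to 0.16, was the lowest. J01 was highest for Crybb1 at 3.198 TPM (1.79 to 2.07) and lowest for Gfap at 1576 TPM (1836 to 1903) and Aldoc at 921 TPM (951 to 960.2). J19 was highest for Ciita at 0.838 TPM (0.371 to 0.497) and for Il18 at 32.5 TPM (25.1 to 26.5).

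Among vehicle mice, J17B was lowest for Cd68 at 209 TPM (294 to 321), Gpnmb at 196 TPM (296 to 332), Grn at 352 TPM (502 to 539), Tapbp at 58.8 TPM (75.3 to 77.2) and the MHC class I score at -0.30 (0.0016 to 0.12). Cd68 encodes a lysosomal protein of macrophages, Gpnmb a glycoprotein of lipid-laden phagocytes and Tapbp the chaperone tapasin. J01B was lowest for P2ry13, a microglial purine receptor, at 23.1 TPM (30.0 to 32.3) and for the choroid plexus score at -0.23 (0.0067 to 0.077). What sets these mice apart, if anything, was not tested.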

How the results depend on the processing

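The count of genes lower kept its size within 1.5 times under another pseudocount, other filters, rescaling, a fit without the variance trend and a fit of the 10 libraries, and ran from 859 to 1420 with single mice left out. The genes higher numbered 179 in the fit of the 10 libraries and 333 to 814 with single mice left out. With a change of more than 1.5-fold required as well, 438 genes were lower and 54 higher. The higher DEGs numbered 32 with a difference above 1 TPM and 8 to 23 with single mice left out, and the lower DEGs 134 to 199. In the comparison of PLX3397+Anakinra with Anakinra, the genes higher numbered 458 after rescaling by the median ratio and 700 to 995 with single vehicle or PLX3397 mice left out, which enter through the shared spread, and the genes lower 1359 to 1477. The count of genes whose PLX3397 effect differed with Anakinra ran from 0 to 9. The causes were not tested.

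Of 122 named genes that passed, 95 also passed with each mouse left out, 77 of 84 lower and 18 of 38 higher ones. Under the other alternatives of the fit that kept all 10 mice, 89 of the 122 passed in each one in which they were tested. In the fit of the 10 compared libraries 29 no longer passed. The replicate block over 6 mice is not part of the 89, and with it 46 no longer passed. The named genes include those picked for the largest changes and smallest p-values in these data. The number of lower chemokine genes fell from 7 to 3 or 4 without J18B, J19B, J20B, J01 or J12, and that of neuronal genes that rose from 5 to 2 or 3 without J18B, J19B, J20B, J01 or J12. With a mean of at least 5 TPM required, fewer list members were tested and those lower numbered 5 for border macrophages, 3 for Toll-like receptors and 2 for the interleukin-1 axis. A sign other than in the main result was seen only for genes that did not pass. With 1 mouse left out, the log2 fold change ran from -0.103 to 0.056 for Fabp5 (above 0 without J01, J18B or J19B), from -0.081 to 0.00057 for Flt3 (above 0 without J19), from -0.0045 to 0.074 for Kit (below 0 without J02) and from -0.0092 to 0.058 for Kitl (below 0 without J19). Fabp5 was 0.029 without J18B and 0.031 without J19B.

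Vehicle and PLX3397 mice share the animal numbers 1, 19 and 20. Deviations from the group means correlated at 0.17, -0.13 and -0.066 in these pairs, and at up to 0.40 between mice of different numbers, so the numbers were not taken as pairs. With the number as a replicate block over these 6 mice, 632 genes were lower, 71 higher and 8 were higher DEGs. The same 6 mice without the block, an alternative chosen after seeing the data, gave 664, 83 and 7. Both of these fits also left the other libraries out of the shared spread. The fit of all 10 compared libraries, which left out those of the other groups too, gave 819 lower and 179 higher. How much each step contributed was not tested. With the block, Fn1 was -0.16, Il18 0.034, Kit -0.0039 and Tlr3 0.025, none of which passed. The same 4 values came from these mice without the block.

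Depth is unknown for TPM, so precision at low values rests on the spread between mice. Tissue was sampled as sections, and a letter B in the number of every vehicle mouse, if it marks a batch, cannot be told apart from the treatment.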
